A study of Mus musculus with 10 samples.

Results

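The genes that give spinal motor neurons their identity and their transmitter were followed in the lumbar spinal cord of mouse embryos at E12.5. They are the LIM-homeodomain and homeobox factors *Isl1*, *Isl2*, *Mnx1*, *Lhx3* and *Lhx4*, and the cholinergic genes *Chat*, *Slc18a3* and *Slc5a7*. These 8 genes were chosen by name, for their known roles and with earlier results of these data known, among 54146 gene identifiers with read counts, and all 8 were among the 19773 genes kept for testing. The embryos were 5 controls and 5 *Dot1l*-cKO littermates from 2 litters, with 3 of each in litter 1 and 2 of each in litter 2. *Dot1l*-cKO embryos carried the Wnt1cre2 transgene on 1 chromosome (Wnt1cre2/+) with *Dot1l* fl/fl. Controls had no transgene and were *Dot1l* fl/fl in litter 1 and *Dot1l* fl/+ in litter 2, and the labels give B6.Cg-E2f1Tg(Wnt1-cre)2Sor/J as the background of all 10. The cre is driven by Wnt1 regulatory sequence, active in the dorsal neural tube and the neural crest. That is not primarily the ventral domain where motor neurons are born. The authors' cre reporter also marked scattered ventral cells, and they proposed that ventral populations might be affected too. The tissue was taken with its dorsal root ganglia attached. Each library came from 1 embryo.

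Motor neurons arise from *Olig2*-expressing progenitors of the ventral neural tube. As they leave the cell cycle they switch on *Isl1*, *Isl2*, *Mnx1*, *Lhx3* and *Lhx4*, and an *Isl1* and *Lhx3* complex activates the cholinergic genes. *Mnx1* (HB9) is largely particular to motor neurons within the cord. *Lhx3* and *Lhx4* are shared with V2 interneurons, *Isl1* is shared with dI3 interneurons, and *Isl1* and *Isl2* are both made by sensory neurons of the dorsal root ganglia, which derive from the neural crest. The question for the members was therefore whether *Isl1* and *Isl2* move with *Mnx1*, *Lhx3* and *Chat*, or apart from them, between litters and between genotypes. In bulk tissue, fewer cells of a type and less RNA per cell cannot be told apart.

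In these embryos *Mnx1*, *Lhx3* and *Lhx4* rose by about the same amount from litter 1 to litter 2, whereas *Isl1* and *Isl2* did not rise with them, and the ganglion gene *Avil* fell. Between genotypes no member passed edgeR's test over all 10 embryos, while DESeq2 called *Isl1* and *Lhx4*, both lower in *Dot1l*-cKO. *Isl2* was higher in *Dot1l*-cKO embryos of litter 2, by 2.22-fold, and *Isl1* had a log2 fold change of 0.00 there.

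*Isl1* (ENSMUSG00000042258.13) lies on chromosome 13 from 116298281 to 116309689 on the minus strand of GRCm38, and *Isl2* (ENSMUSG00000032318.12) on chromosome 9 from 55538672 to 55546180 on the plus strand. *Chat* (chromosome 14, 32408203 to 32465989) and *Slc18a3* (chromosome 14, 32462438 to 32464850) form the cholinergic gene locus, in which *Slc18a3* is nested inside an intron of *Chat* on the same strand. The RefSeq sequence upstream of these 4 starts is shown, since the results turn on how the 2 Islet genes differ from each other and how the 2 genes of the cholinergic locus differ from each other. The table of promoters (build GRCm38.p6) held all 8 members, *Lhx3* with 2 starts. Only bases outside annotated exons of the gene are printed, 5′ to 3′ on the strand of the gene, and capitals mark TAAT, the core bound by homeodomain factors, read on both strands (so also ATTA), and CAGCTG, an E-box that reads the same on both strands.
Isl1, chr13:116309690-116309938, minus strand: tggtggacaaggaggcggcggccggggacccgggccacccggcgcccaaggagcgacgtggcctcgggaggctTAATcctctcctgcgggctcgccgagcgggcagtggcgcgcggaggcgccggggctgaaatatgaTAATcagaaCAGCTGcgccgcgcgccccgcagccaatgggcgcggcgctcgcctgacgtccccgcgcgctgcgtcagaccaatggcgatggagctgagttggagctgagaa
Isl2, chr9:55540899-55541147, plus strand: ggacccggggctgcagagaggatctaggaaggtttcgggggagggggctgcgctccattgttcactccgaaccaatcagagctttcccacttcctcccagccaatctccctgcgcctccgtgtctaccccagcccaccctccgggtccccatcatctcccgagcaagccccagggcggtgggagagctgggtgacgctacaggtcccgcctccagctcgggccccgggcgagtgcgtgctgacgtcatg
Chat, chr14:32465990-32466159, minus strand: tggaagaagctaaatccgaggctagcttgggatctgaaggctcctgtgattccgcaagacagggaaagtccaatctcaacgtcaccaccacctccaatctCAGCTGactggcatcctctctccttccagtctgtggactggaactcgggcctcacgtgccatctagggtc
Slc18a3, chr14:32464851-32465100, minus strand: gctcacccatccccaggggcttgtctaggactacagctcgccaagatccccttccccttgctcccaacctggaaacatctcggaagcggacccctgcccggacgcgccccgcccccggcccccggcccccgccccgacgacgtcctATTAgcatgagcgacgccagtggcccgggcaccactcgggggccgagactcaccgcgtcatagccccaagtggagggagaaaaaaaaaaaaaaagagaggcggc

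Over the 250 bases upstream, the *Isl1* window held 2 TAAT cores and 1 CAGCTG, and the *Isl2* window held 0 of either. Of all 32851 upstream windows of that length, 54.9% held TAAT and 13.0% held CAGCTG. The *Chat* window was 54.8% G and C with 8 CpG sites, and the *Slc18a3* window 66.0% with 21 CpG sites, against medians of 52.4% and 6 over all windows. These letters describe the windows and no binding was measured.

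The other members are *Mnx1* (chromosome 5, 29473034 to 29478470), *Lhx3* (chromosome 2, 26200212 to 26208289), *Lhx4* (chromosome 1, 155698031 to 155751684) and *Slc5a7* (chromosome 17, 54273590 to 54299034), all on the minus strand. Of the related pairs, *Isl1* and *Isl2* transcripts shared no identical run longer than 23 bases, and *Lhx3* and *Lhx4* none longer than 20, so paired reads of 75 bases could tell the members apart. *Chat* and *Slc18a3* shared 0 exonic bases. Since *Slc18a3* lies in an intron of *Chat* on the same strand, reads of unspliced *Chat* RNA there cannot be told from those of *Slc18a3*. The library kit does not mark strand and no strand setting is given for the counting, so reads of an antisense partner cannot be told from a member's where exons overlap. That concerned *Lhx3*, of whose exons 6.17% (188 bases) overlap Gm27196, a gene with only 35 to 80 reads per embryo.

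Total counts per embryo lay between 40949585 and 68928443. The unit of level is CPM, a gene's share of its library's counts after TMM scaling. *Dot1l* itself, counted over the whole gene, was at 94.0 ± 7.85 CPM (SD, n = 5) in controls and 106 ± 6.18 CPM (SD, n = 5) in *Dot1l*-cKO embryos (log2 fold change 0.17, standard error 0.06, adjusted p = 0.130 by edgeR). The genotype labels were thus not checked by these counts, since the counts do not separate the deleted exons from the rest. Both *Dot1l*-cKO embryos of litter 2 had low *Xist* (6.00 and 6.79 CPM, against 499 to 890 CPM in the other 8), so in litter 2 sex and genotype cannot be told apart. Libraries also differed in how counts depended on the G and C content of a gene. The log2 level of genes at 60% G and C relative to genes at 40% was -0.27 and -0.26 in the litter 2 controls and between -0.07 and 0.25 in the other 8 embryos. Each gene was tested by edgeR's quasi-likelihood method, the litter being a covariate, and p was adjusted after Benjamini and Hochberg over all genes tested.

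Levels of different genes can be compared only per length. Per kilobase of exon, *Isl1* was the most abundant member, at 27.6 ± 4.27 CPM per kb (SD, n = 10), followed by *Isl2* at 15.1 ± 4.94, *Slc18a3* at 9.17 ± 2.77, *Mnx1* at 5.99 ± 1.62, *Lhx4* at 5.34 ± 1.48, *Lhx3* at 4.20 ± 1.12, *Slc5a7* at 4.20 ± 0.463 and *Chat* at 1.22 ± 0.194 CPM per kb. *Isl1* was above *Isl2*, *Slc18a3* above *Mnx1* and *Slc5a7* above *Chat* in 10 of 10 embryos. Neighbours in between changed places: *Mnx1* was above *Lhx4* in 7 of 10 embryos and *Lhx3* above *Slc5a7* in 4 of 10. *Chat*, the enzyme that makes acetylcholine, was thus the lowest of the 8, with 251 to 364 reads per embryo, while *Slc18a3* (VAChT), the vesicular transporter from the same locus, had 812 to 2092.

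**Figure D1:**
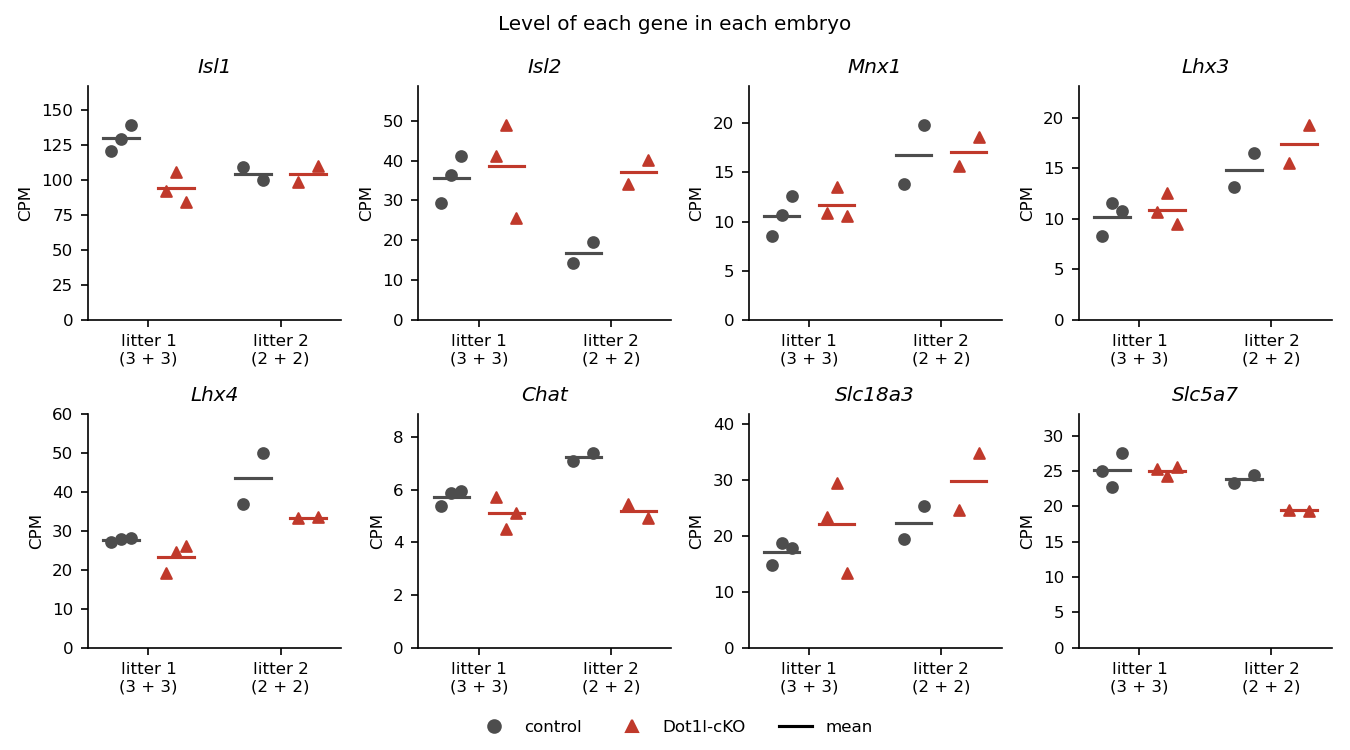
Level of the 8 genes in each of the 10 embryos, in CPM on the y axis from 0, with litters on the x axis (3 controls and 3 *Dot1l*-cKO embryos in litter 1, 2 and 2 in litter 2). Points are embryos and bars are means: *Mnx1*, *Lhx3* and *Lhx4* stand higher in litter 2 in every embryo, and *Isl2* is lowest in the 2 controls of litter 2.

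On the motor neuron side, *Mnx1* and *Lhx3* were read first, though *Lhx3* is shared with V2 interneurons. *Mnx1* was at 8.53, 10.7 and 12.6 CPM in the controls of litter 1 and at 13.8 and 19.8 CPM in those of litter 2. In *Dot1l*-cKO embryos it was at 10.9, 13.5 and 10.5 CPM in litter 1 and at 15.7 and 18.6 CPM in litter 2. All 4 embryos of litter 2 were above all 6 of litter 1, and the genotypes overlapped in each litter.
*Mnx1* rose from litter 1 to litter 2 with a log2 fold change of 0.61 (standard error 0.12, adjusted p = 0.00165). Its log2 fold change between *Dot1l*-cKO and control was 0.09 (standard error 0.12, adjusted p = 0.710). *Lhx3*, the partner of *Isl1* in newborn motor neurons, behaved alike. It was at 8.29, 11.6 and 10.7 CPM in litter 1 controls, 13.2 and 16.5 in litter 2 controls, 10.6, 12.6 and 9.53 in litter 1 *Dot1l*-cKO and 15.5 and 19.3 in litter 2 *Dot1l*-cKO. Again the litters did not overlap and the genotypes did. *Lhx3* rose between litters with a log2 fold change of 0.61 (standard error 0.11, adjusted p = 0.000838), and its value between genotypes was 0.15 (adjusted p = 0.462). With counts corrected for G and C content, the genotype values of *Mnx1* and *Lhx3* turned to -0.02 and -0.01, both far from the threshold.

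*Lhx4*, the close relative of *Lhx3* that is made in motor neuron and V2 lineages, also rose between litters. Controls were between 27.1 and 28.04 CPM in litter 1 and at 36.8 and 50.0 CPM in litter 2. *Dot1l*-cKO embryos were at 19.2, 24.5 and 26.1 CPM in litter 1 and at 33.3 and 33.4 CPM in litter 2. Within each litter every *Dot1l*-cKO embryo was below every control, and over the 10 embryos the groups overlapped. The log2 fold change was 0.58 between litters (standard error 0.09, adjusted p = 0.000234) and -0.30 between genotypes (standard error 0.09, adjusted p = 0.0797). DESeq2's Wald test gave the same genotype value with an adjusted p of 0.0255, past the threshold.

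*Isl1*, made by motor neurons, dI3 interneurons and sensory neurons, did not follow. Controls were at 121, 130 and 140 CPM in litter 1 and at 109 and 100 CPM in litter 2. *Dot1l*-cKO embryos were at 92.5, 106 and 84.5 CPM in litter 1 and at 98.9 and 110 CPM in litter 2. In litter 1 the 3 *Dot1l*-cKO embryos were all below the 3 controls, and in litter 2 the genotypes overlapped. The log2 fold change between litters was -0.08 (standard error 0.09, adjusted p = 0.549). Between genotypes it was -0.28 over the 10 embryos (standard error 0.09, adjusted p = 0.0880), -0.46 in litter 1 alone (standard error 0.09, adjusted p = 0.0803) and 0.00 in litter 2 alone (standard error 0.07, adjusted p = 0.991). DESeq2's Wald test gave -0.28 with an adjusted p of 0.0349. With *Xist* as a covariate, a fit that leans on litter 1, edgeR gave -0.48 (adjusted p = 0.0539). The difference of the genotype values between litters was 0.46 (interaction test, adjusted p = 0.389).

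*Isl2*, made by motor neurons and sensory neurons, had the largest SD of the 8 per kilobase of exon (4.94 CPM per kb, n = 10). Controls were at 29.3, 36.4 and 41.2 CPM in litter 1 and at 14.2 and 19.6 CPM in litter 2. *Dot1l*-cKO embryos were at 41.3, 49.0 and 25.7 CPM in litter 1 and at 34.1 and 40.2 CPM in litter 2. The 2 litter 2 controls were the lowest of all 10, the highest and the lowest of litter 1 were both *Dot1l*-cKO embryos, and only in litter 2 did the genotypes not overlap. *Isl2* rose in the *Dot1l*-cKO embryos of litter 2 with a log2 fold change of 1.149 (standard error 0.13, adjusted p = 0.000644). In litter 1 the value was 0.12 (standard error 0.20, adjusted p = 0.840), and over all 10 embryos 0.51 (standard error 0.20, adjusted p = 0.164). With the level of *Xist* as a covariate, edgeR gave 0.06 (adjusted p = 0.936). *Xist* was low in the litter 2 *Dot1l*-cKO embryos alone, so this value comes mostly from litter 1. The interaction, 1.02, did not pass (adjusted p = 0.433). The call in litter 2 rests on 2 embryos against 2 that also differed in sex and in the number of floxed alleles, and these cannot be told apart from genotype there. With counts corrected for G and C content, *Isl2* in litter 2 was at 16.4 and 21.9 CPM in controls and at 33.2 and 36.9 CPM in *Dot1l*-cKO embryos, still without overlap, and the log2 fold change over all 10 embryos was 0.35 (adjusted p = 0.253). Marker genes of other tissues moved in the same 4 embryos: 8 of 24 ganglion genes, 6 of 12 genes of neural crest glia and 4 of 12 of blood and vessel rose with *Dot1l*-cKO in litter 2, beside 3.98% of all genes tested there, and 7 of 10 skeletal muscle genes fell, beside 1.16%. Their part in the *Isl2* value was not tested. Without *Dot1l*-cKO embryo 7 of litter 1, the lowest *Dot1l*-cKO embryo for *Isl2*, the log2 fold change over 9 embryos was 0.70 (adjusted p = 0.0203). That was the only 1 of 10 fits leaving out 1 embryo in which *Isl2* passed, and values ranged from 0.35 to 0.70.

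Of the 3 cholinergic genes, 0 passed the genotype test by edgeR or DESeq2, beside 2.99% and 8.30% of all genes. At an unadjusted p below 0.05 by edgeR there were 2, *Chat* and *Slc18a3*, beside 21.7% of all genes. *Chat* was at 5.37, 5.87 and 5.96 CPM in litter 1 controls and 7.09 and 7.41 CPM in litter 2 controls. In *Dot1l*-cKO embryos it was at 5.73, 4.49 and 5.12 CPM in litter 1 and at 5.47 and 4.94 CPM in litter 2. The litter 2 controls were the highest 2 of all 10, and the genotypes overlapped in litter 1 only. *Chat* had a log2 fold change of -0.29 between genotypes (standard error 0.10, adjusted p = 0.119) and of 0.18 between litters (adjusted p = 0.187). With *Xist* as a covariate, a fit that leans on litter 1, the genotype value by edgeR was -0.15 (adjusted p = 0.650).
*Slc18a3*, which loads acetylcholine into vesicles, had a value of the opposite sign. It was at 14.7, 18.6 and 17.9 CPM in litter 1 controls, 19.4 and 25.3 in litter 2 controls, 23.3, 29.4 and 13.3 in litter 1 *Dot1l*-cKO and 24.6 and 34.8 in litter 2 *Dot1l*-cKO. *Dot1l*-cKO embryos held both the lowest value and the 2 highest, and the genotypes overlapped in both litters. The log2 fold change between genotypes was 0.38 (standard error 0.17, adjusted p = 0.207), and it was 0.17 (adjusted p = 0.497) with counts corrected for G and C content. *Slc18a3* is 61.2% G and C over its transcript, against 54.3% for *Chat*. Without *Dot1l*-cKO embryo 7 of litter 1, *Slc18a3* passed, with a log2 fold change of 0.53 (adjusted p = 0.0211), and without *Dot1l*-cKO embryo 3 of litter 1 the value was 0.25 (adjusted p = 0.418). Between litters *Slc18a3* had a log2 fold change of 0.41 (adjusted p = 0.0786).

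*Slc5a7*, the high-affinity choline transporter of cholinergic terminals, was the steadiest member, between 19.4 and 27.6 CPM. The lowest 2 values were those of the litter 2 *Dot1l*-cKO embryos, both below the 2 controls of that litter, and in litter 1 the genotypes overlapped. *Slc5a7* fell from litter 1 to litter 2, with a log2 fold change of -0.22 (standard error 0.07, adjusted p = 0.0316), against the direction of *Mnx1*. Among controls alone the value was -0.07 (adjusted p = 0.653), so the controls alone did not give this call. It passed in 5 of the 10 fits that left out 1 embryo. The log2 fold change between genotypes was -0.12 (adjusted p = 0.349).

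Counted together, 0 of the 8 members passed the genotype test at an adjusted p below 0.05 with edgeR, where 2.99% of all genes tested did (1.90% higher and 1.09% lower). At an unadjusted p below 0.05 there were 5 of 8 members, *Isl1*, *Isl2*, *Lhx4*, *Chat* and *Slc18a3*, beside 21.7% of all genes. DESeq2 called *Isl1* and *Lhx4*, 2 of 8 beside 8.30% of all genes, and limma-voom called 0. In litter 1 alone 0 of 8 passed (0.0623% of all genes) and in litter 2 alone 1 of 8, *Isl2* (5.13% of all genes). At an unadjusted p below 0.05 there were 2 of 8 in litter 1, beside 14.1% of all genes, and 5 of 8 in litter 2, beside 20.7%. The genotypes did not overlap for 0 of 8 members over the 10 embryos (1.93% of all genes), for 2 of 8 within litter 1 (18.6%) and for 4 of 8 within litter 2 (51.7%), shares close to those of all genes. The interaction test called 0 of 8 members by edgeR (0.00978% of all genes) and by DESeq2. At an unadjusted p below 0.05 it had 3 of 8 in each, beside 8.05% of all genes by edgeR and 9.29% by DESeq2. The median log2 fold change of the 8 was -0.01, as over all genes tested.

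Between litters 4 of 8 members passed, beside 34.7% of all genes. *Mnx1*, *Lhx3* and *Lhx4* were higher in litter 2 (16.9% of all genes were called higher) and *Slc5a7* lower (17.8% called lower), and for 3 of 8 the litters did not overlap (23.4% of all genes). Among the 5 controls alone, 6 of 8 passed, beside 24.5% of all genes. There *Mnx1* (0.66), *Lhx3* (0.55), *Lhx4* (0.65) and *Slc18a3* (0.39) were higher in litter 2, and *Isl1* (-0.31, adjusted p = 0.0126) and *Isl2* (-1.08, adjusted p = 0.000475) were lower, all as log2 fold changes. Among controls the 2 Islet genes thus moved against *Mnx1* and *Lhx3*. Litter and number of floxed alleles cannot be told apart in that comparison.

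**Figure D2:**
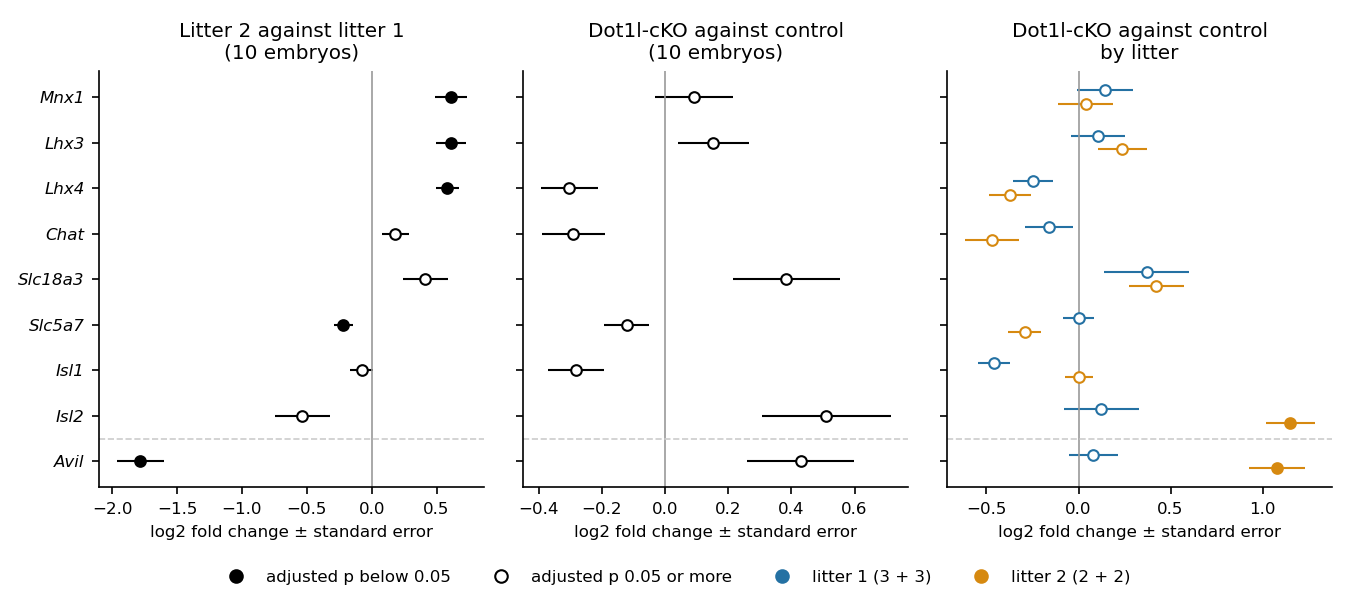
Log2 fold change with its standard error on the x axis, for the 8 members and, below the dashed line, the ganglion gene *Avil* (edgeR's quasi-likelihood test). The left panel sets litter 2 against litter 1, the middle panel *Dot1l*-cKO against control over all 10 embryos, and the right panel does so in each litter, with filled points for an adjusted p below 0.05. *Mnx1*, *Lhx3* and *Lhx4* lie near 0.6 between litters, *Isl1* near 0 and *Avil* below -1.

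Genes of the ganglia set the other end of the scale. *Avil* (advillin), an actin-binding protein of sensory neurons, was at 35.4, 30.6 and 32.3 CPM in litter 1 controls and at 6.57 and 6.50 CPM in litter 2 controls. In *Dot1l*-cKO embryos it was at 43.3, 29.6 and 30.7 CPM in litter 1 and at 11.6 and 15.8 CPM in litter 2. The litters did not overlap, and the genotypes overlapped in litter 1 only. *Avil* fell between litters (log2 fold change -1.78, standard error 0.18, adjusted p = 7.04e-06). Of 24 genes marking sensory neurons of the dorsal root ganglion, 15 fell and 2 rose between litters, beside 17.8% and 16.9% of all genes, with a median log2 fold change of -0.52 beside -0.02 over all genes tested. Their summed level was 1447 to 1674 CPM in litter 1 controls and 952 to 1018 CPM in litter 2 controls. In *Dot1l*-cKO embryos it was 1248 to 1424 CPM in litter 1 and 1031 to 1127 CPM in litter 2. Ganglion genes were thus lower with *Dot1l*-cKO in litter 1 and higher in litter 2 as sums. *Avil* had a genotype log2 fold change of 0.08 in litter 1 (adjusted p = 0.841) and rose in litter 2, by 1.08 (adjusted p = 0.00212). The part of the ganglia in the Islet values was not tested.

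The next question was whether *Isl1* and *Isl2* kept step with motor neuron genes or with the ganglion gene *Avil*. The log2 ratio of each Islet gene to *Mnx1*, *Lhx3*, *Chat* and *Avil* was taken in every embryo. Its shift was tested by exact two-sided permutation. These 8 ratios belong to a family of 10, over which p was adjusted. Between litters, labels were permuted within genotype, which leaves 100 arrangements and a smallest exact permutation p of 0.01. The ratio of *Isl1* to *Mnx1* was lower in litter 2 by a log2 difference of -0.67 and that to *Lhx3* by -0.67. Its ratio to *Avil* was higher by 1.69. For *Isl2* the differences were -1.12 to *Mnx1*, -1.12 to *Lhx3* and 1.23 to *Avil*. These 6 had the smallest p the exact permutations allow, with an adjusted p of 0.0125 over the 10 ratios. Relative to *Chat* the differences were -0.25 for *Isl1* (exact permutation adjusted p = 0.200) and -0.71 for *Isl2* (adjusted p = 0.0889, exact permutation). This test was added after the litter values had been seen. Between litters both Islet genes thus lost ground to *Mnx1* and *Lhx3* and gained ground on *Avil*. *Avil* lies at the low end of the ganglion genes, whose median was -0.52. The litter log2 fold change of *Isl2* itself did not pass (-0.53, adjusted p = 0.0632) over all 10 embryos. Among controls it was -1.08, while *Dot1l*-cKO embryos had means of 38.7 CPM in litter 1 and 37.1 CPM in litter 2.

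**Figure D3:**
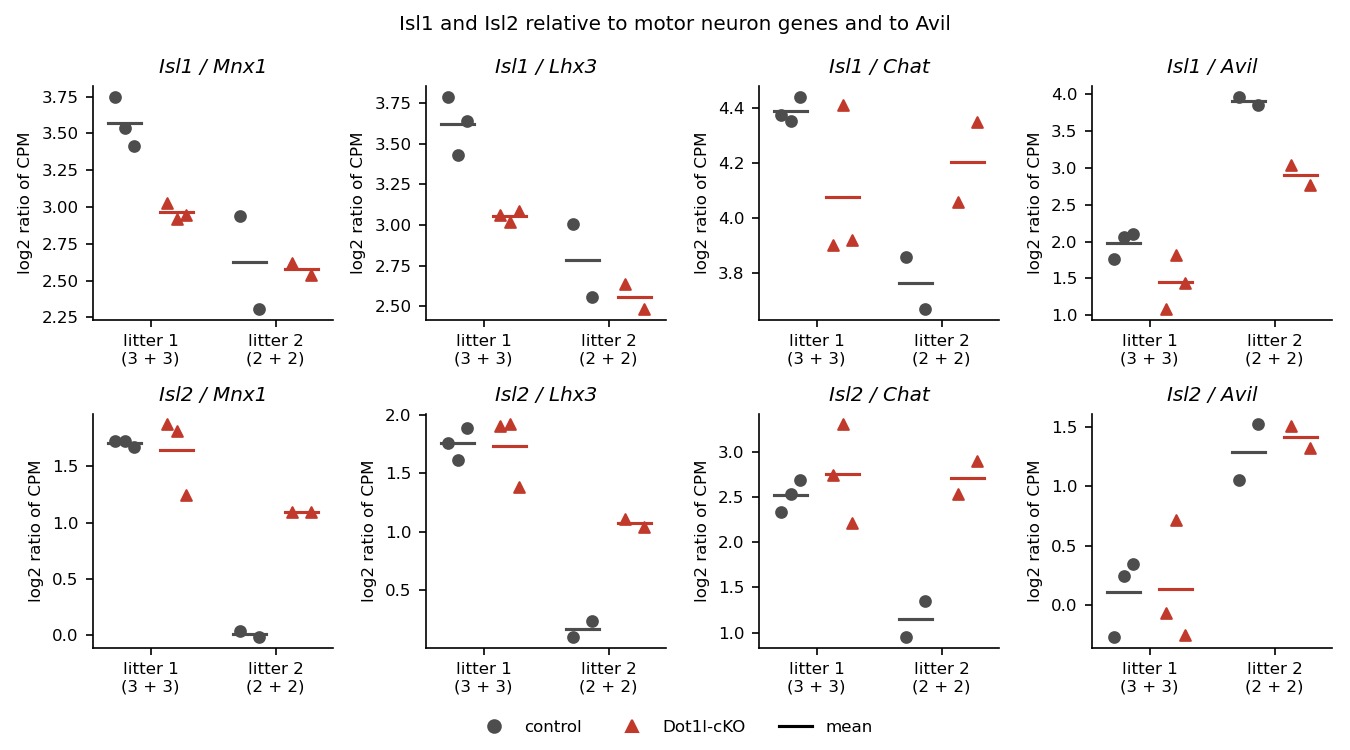
Log2 ratio of CPM (pseudocount 0.5) of *Isl1* (top) and *Isl2* (bottom) to 3 motor neuron genes and the ganglion gene *Avil*, for each embryo by litter and genotype. Points are embryos and bars are means. Ratios to *Mnx1* and *Lhx3* step down from litter 1 to litter 2 and ratios to *Avil* step up, while the genotypes differ in some litters only.

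Between genotypes the ratios gave no call. Permuting within litters leaves 120 arrangements and a smallest p of 0.0167, at which a single ratio cannot pass the adjustment over 10. The log2 ratio of *Isl1* to *Mnx1* lay between 3.42 and 3.75 in litter 1 controls and between 2.92 and 3.03 in litter 1 *Dot1l*-cKO. In litter 2 it lay between 2.31 and 2.94 in controls and between 2.54 and 2.62 in *Dot1l*-cKO. The groups were apart in litter 1 and overlapped in litter 2, and the difference over both was -0.38 (exact permutation p = 0.05, adjusted p = 0.125). *Isl1* to *Lhx3* gave -0.43 (exact permutation p = 0.0333, adjusted p = 0.111) and *Isl1* to *Avil* -0.72 (exact permutation p = 0.0333, adjusted p = 0.111). With counts corrected for G and C content the first 2 differences were both -0.24 (exact permutation adjusted p = 0.333 for *Mnx1* and 0.292 for *Lhx3*). *Isl1* to *Chat* differed by -0.31 in litter 1 and by 0.44 in litter 2. *Avil* did not follow most ganglion genes in litter 1. Its genotype log2 fold change there was 0.08, while 16 of the 24 ganglion genes had negative values and 8 positive (median -0.15).

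For *Isl2* the 2 litters gave different values. Its log2 ratio to *Mnx1* was 1.67 to 1.72 in litter 1 controls and 1.25 to 1.87 in litter 1 *Dot1l*-cKO, which overlap. In litter 2 it was -0.01 and 0.04 in the controls and 1.09 in both *Dot1l*-cKO embryos, which do not. The difference was -0.06 in litter 1, 1.08 in litter 2 and 0.40 over both (exact permutation p = 0.183, adjusted p = 0.229). Ratios to *Lhx3* and *Chat* did likewise, with 0.91 and 1.57 in litter 2. *Isl2* to *Avil* differed by 0.02 in litter 1, 0.13 in litter 2 and 0.07 over both (exact permutation p = 0.8, adjusted p = 0.889). Of these 4 ratios of *Isl2*, that to *Avil* had the smallest difference, and none of the 10 ratios passed adjustment.

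Likeness of pattern was then ranked over the 10 embryos, as the Pearson correlation of log2 CPM after subtracting each litter's mean, among 12896 genes with other than predicted names. The embryos of a genotype share that contrast, and the values describe these libraries. The 3 genes most like *Isl1* were *Pou4f3* (r = 0.987), a POU factor of sensory neurons, *Prdm12* (0.982), a regulator of nociceptors, and *Flrt1* (0.954), a membrane adhesion protein. With *Isl1*, *Isl2* had r = 0.13, *Lhx3* 0.08, *Mnx1* 0.00 and *Avil* -0.06. Those most like *Isl2* were *Plekhg5* (0.987), *Il3ra* (0.980) and *Jag2* (0.979), whose transcripts are 59.9% to 61.9% G and C, close to that of *Isl2* (59.98%). Among members, *Isl2* stood closest to *Slc18a3* (0.81) and *Lhx3* (0.76), and it ran against *Chat* (-0.68). These correlations used counts without the G and C correction. Transcripts of *Slc18a3*, *Lhx3* and *Mnx1* are 61.2%, 60.3% and 58.7% G and C, against 54.3% for *Chat*. The part of G and C content in these correlations was not tested. *Mnx1* was most like *Frzb* (0.934), a secreted Wnt inhibitor, *Gata2* (0.930), a factor of V2b interneurons, and *Lrrc59* (0.929). *Lhx3* ranked 18th for *Mnx1*, with r = 0.85. *Chat* was most like *Zfp326* (0.955) and *Msh3* (0.953), and among members most like *Slc5a7* (0.73), with -0.50 for *Slc18a3* of its own locus.

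**Figure D4:**
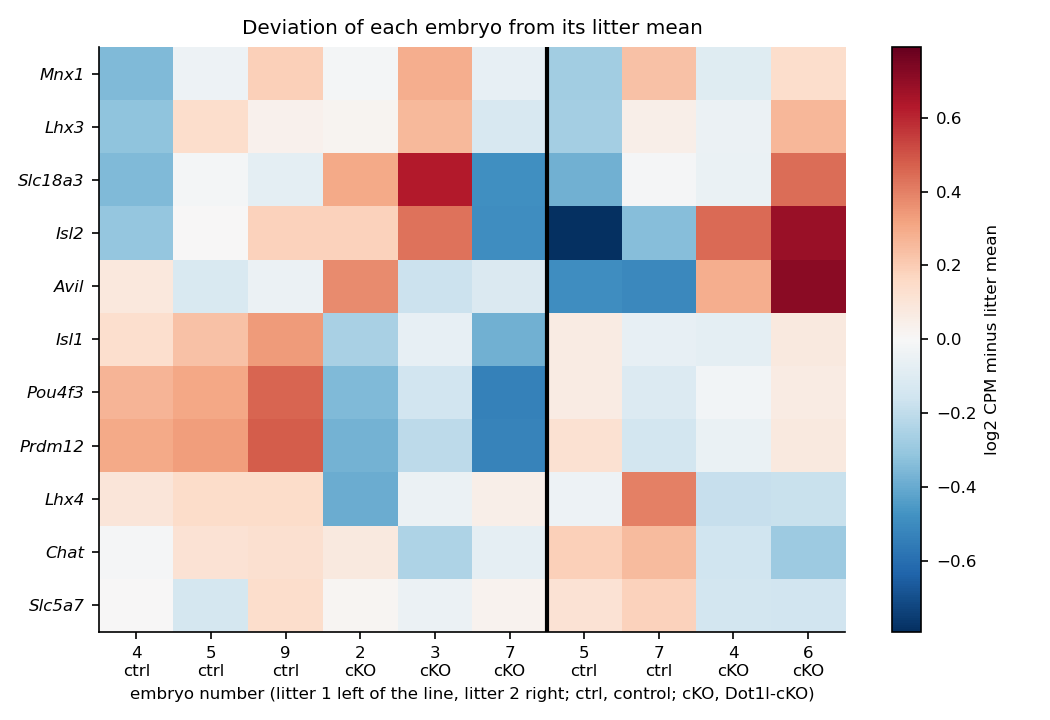
Log2 CPM of each embryo minus the mean of its litter (colour scale), for the members, *Avil*, *Pou4f3* and *Prdm12* (rows), with embryos as columns (numbered as in the labels) and the litters split by the black line. *Isl1*, *Pou4f3* and *Prdm12* are above the mean in the 3 controls of litter 1 and below it in its 3 *Dot1l*-cKO embryos, while *Isl2* has its extremes in litter 2.

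Other genes of the motor neuron lineage and of cholinergic transmission were read from lists chosen by function. Beside the genotype calls of each list stand 1.90% higher and 1.09% lower over all genes tested. Of 16 genes of motor neuron progenitors and newborn motor neurons, 0 passed the genotype test (median log2 fold change 0.05), while 8 rose and 5 fell between litters, beside 16.9% higher and 17.8% lower over all genes. The most abundant were *Ebf3* (0.14, adjusted p = 0.163), *Ebf1* (-0.17, adjusted p = 0.0729) and *Ebf2* (0.11, adjusted p = 0.129), factors of early neuronal differentiation, and the LIM cofactor *Ldb1* (0.06, adjusted p = 0.566). Of 18 genes of motor neuron columns and pools, 1 rose in *Dot1l*-cKO and 0 fell (median -0.03). *Nos1*, the nitric oxide synthase of preganglionic and other neurons, rose with a log2 fold change of 0.51 (adjusted p = 0.0173). *Lhx1* (0.11), *Hoxc10* (-0.06), *Zeb2* (-0.10) and *Hoxa10* (-0.06) did not pass. *Nos1* is also made by other spinal neurons, and its level was not assigned to a cell type.

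Of 22 genes of motor axons and their trophic factors, 1 fell in *Dot1l*-cKO and 0 rose (median -0.01). It was *Nefl*, the neurofilament light chain, with a log2 fold change of -0.22 (adjusted p = 0.0284). *Nefm* (-0.15), *Agrn* (-0.11), *Robo1* (-0.01) and *Robo2* (0.09) did not pass. Of 31 other cholinergic genes, 27 were tested, of which 1 rose and 2 fell in *Dot1l*-cKO (median 0.00), beside 1.90% and 1.09% of all genes. *Ache*, which breaks down acetylcholine, rose with a log2 fold change of 0.40 (adjusted p = 0.0376), while *Chka*, a choline kinase of phospholipid synthesis (-0.25, adjusted p = 0.0263), and *Chrna4*, a nicotinic receptor subunit (-0.21, adjusted p = 0.0476), fell. *Chrnb2* (0.02), *Slc44a2* (-0.16), *Chrna3* (-0.18) and *Slc44a1* (-0.15) did not pass. *Ache* also fell between litters (-0.70, adjusted p = 7.56e-05), opposite to *Mnx1*.

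The interneurons that share members were read in the same way. Of 10 V2 interneuron genes, which share *Lhx3* and *Lhx4* with motor neurons, 0 passed the genotype test (median 0.17). Between litters 8 of the 10 rose and 0 fell, beside 16.9% and 17.8% of all genes, with a median of 0.46 that lies near the values of *Mnx1*, *Lhx3* and *Lhx4*. *Sox21* (0.56, adjusted p = 0.000117) and *Shox2* (0.29, adjusted p = 0.00263) rose between litters, and *Bhlhe22* (-0.21) did not pass. Of 5 genes of dI3 interneurons, which share *Isl1* with motor neurons, 1 rose in *Dot1l*-cKO and 0 fell (median -0.03), beside 1.90% and 1.09% of all genes. It was *Prrxl1* (Drgx), a homeobox factor also made by sensory neurons, with a log2 fold change of 0.32 (adjusted p = 0.0476). *Pou4f1* (-0.03), *Otp* (-0.07) and *Prdm8* (-0.06) did not pass. *Tlx3*, which marks dI3 and dI5 neurons, had the largest value of the 5, 0.80 (adjusted p = 0.0964), and 0.35 with counts corrected for G and C content.

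Other tissues on the dissected cord also varied. Of the 24 ganglion genes, *Gfra2* rose (0.40, adjusted p = 0.0333) and *Runx3* fell (-0.71, adjusted p = 0.0483) in *Dot1l*-cKO, with a median of -0.04. Over all genes tested 1.90% rose and 1.09% fell. Of 12 genes of neural crest glia, 1 rose and 0 fell (median 0.11). Of 12 skeletal muscle genes, 10 were tested and 0 passed, all 10 with negative values (median -1.05). Summed levels of this list were 31.2 to 150 CPM in litter 1 controls, 24.6 to 116 in litter 1 *Dot1l*-cKO, 170 to 171 in litter 2 controls and 71.5 to 74.8 in litter 2 *Dot1l*-cKO, with *Ckm* and *Myf6* near 0. The sums include *Pax7*, which is not particular to muscle. In the same order of groups *Pax7* was at 17.5 to 21.6, 10.4 to 19.5, 42.0 to 42.6 and 36.1 to 37.0 CPM. Of 10 genes of mesenchyme and meninges (median -0.08) and 12 of blood and vessel (median 0.05), 0 passed. In litter 2 alone the medians were 0.14 for the ganglion genes, 0.45 for neural crest glia, -1.50 for skeletal muscle, 0.22 for mesenchyme and meninges (2 of 10 rose) and 0.30 for blood and vessel, beside -0.01 over all genes tested. In litter 1 alone 2 of 24 ganglion genes fell and 0 genes of the other 4 lists passed, beside 0.00519% higher and 0.0571% lower over all genes. Summed levels of neural crest glia were 478 to 485 CPM in litter 2 controls and 589 to 607 CPM in litter 2 *Dot1l*-cKO, and those of blood and vessel were 1484 to 1530 CPM and 1781 to 2104 CPM. The part of these tissues in the members' values was not tested.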

How the data were processed

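The authors deposited raw counts of paired-end reads per gene, made with the RNA-seq workflow of snakePipes: TrimGalore for trimming, STAR for alignment to mm10, featureCounts for the counts. Gene names, positions and exon lengths came from GENCODE M21 on GRCm38, the same build, and named 54079 of 54146 identifiers. With R 4.3.3, the counts were filtered (filterByExpr), scaled by TMM and tested with edgeR 4.0.16 (quasi-likelihood, litter as covariate, Benjamini-Hochberg threshold 0.05). DESeq2 1.42.0 and limma-voom (limma 3.58.1) served as alternatives, with others listed in the closing section. A standard error is the log2 fold change divided by the square root of F. Ratios used log2 of CPM plus 0.5 with exact permutation. The G and C correction, added after the data were seen, removed each embryo's smooth trend of log2 level on transcript content. The members and the gene lists were chosen with earlier results of these data known. Named genes were the members, listed genes past the genotype or interaction test, up to 4 further abundant genes for each motor neuron, cholinergic and interneuron list, *Avil*, the overlapping antisense gene, *Dot1l*, and the 3 genes most like *Isl1*, *Isl2*, *Mnx1* and *Chat*. Some genes that this rule names are not reported here. Each embryo counts as 1 replicate, as labelled. To look for repeat deposits of 1 library, same-genotype embryos were compared with sampling noise, and none of the 20 pairs agreed within it (chi-square 8.59 to 76.9 per gene).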

Additional observations from a re-analysis of the deposited data

How the results depend on the processing

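Members called between genotypes numbered 0 by edgeR, also with DESeq2 size factors, a minimum of 10 counts in every embryo, limma-voom, the robust fit, *Xist* as covariate, the G and C correction and no litter term. They numbered 2 with DESeq2, 1 in litter 2 alone and 4 with no expression filter (*Isl1*, *Isl2*, *Lhx4* and *Slc18a3*). Leaving out 1 embryo gave 0 to 3, the 3 (*Isl2*, *Lhx4* and *Slc18a3*) only without *Dot1l*-cKO embryo 7 of litter 1. All genes called, 591 by the main test, numbered 1492 with DESeq2, 360 with the G and C correction, 49 with *Xist*, 12 in litter 1, 964 in litter 2, 2201 with no filter, 0 without the litter (1867 at an unadjusted p below 0.05), and 53 to 1377 with 1 embryo left out. The interaction called 2 genes, 92 with DESeq2 and 1 to 95 with 1 embryo left out, and 0 members each time. Litter calls of *Mnx1*, *Lhx3* and *Lhx4* held in all 10 fits that left out 1 embryo. That of *Slc5a7* was lost in 5 of them (without *Dot1l*-cKO embryo 2 or 7 of litter 1 or 4 or 6 of litter 2, or control 9 of litter 1), *Isl2* passed without *Dot1l*-cKO embryo 7 of litter 1 or 6 of litter 2 (-0.70 each), and *Slc18a3* passed without *Dot1l*-cKO embryo 3 of litter 1 (0.53) and with the G and C correction (0.53). The cause was not tested.

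No call changed sign. Of values short of the threshold, the genotype value of *Mnx1* was -0.0243 and of *Lhx3* -0.0145 with the G and C correction, that of *Slc5a7* 0.0213 with *Xist* and 5.53e-05 in litter 1, and that of *Isl1* 0.0022 in litter 2. The litter value of *Isl1* ranged from -0.16 to 0.0027 with 1 embryo left out. The interaction ranged from -0.34 to 0.18 for *Mnx1*, -0.0375 to 0.30 for *Lhx3*, -0.33 to 0.11 for *Lhx4* and -0.22 to 0.32 for *Slc18a3*. Of the ratios, *Isl1* to *Chat* was 0.0428 and *Isl2* to *Avil* -0.0545 with the G and C correction. With 1 embryo left out they ranged from -0.12 to 0.0782 and from -0.0891 to 0.18. No ratio passed between genotypes with a pseudocount of 1, no TMM factor, arrangements across litters or the G and C correction, but a single ratio at the smallest p of these permutations could not pass the adjustment over 10, so this says nothing about stability. No paired analysis was possible because replicate numbers are not shared between the genotypes. Each member had 251 reads or more in every embryo. Counts from 10 embryos of 2 litters measure the spread between those litters' embryos only.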

Other observations

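Genes upstream of the motor neuron members divided by litter. Of the progenitor and newborn motor neuron genes, the proneural factors *Neurod4* (log2 fold change 1.18, adjusted p = 5.53e-06), *Neurog1* (1.14, adjusted p = 0.00159) and *Neurog2* (0.83, adjusted p = 7.08e-05) and the progenitor factor *Pax6* (0.64, adjusted p = 4.49e-06) rose from litter 1 to litter 2, as *Mnx1*, *Lhx3* and *Lhx4* did. *Olig1* (-2.32, adjusted p = 3.43e-06) and *Olig2* (-0.51, adjusted p = 0.00429), which mark motor neuron progenitors and later oligodendrocyte precursors, fell. The embryonic globin genes *Hba-x* (1.51, adjusted p = 5e-07) and *Hbb-y* (0.87, adjusted p = 6.03e-06) rose. They do not stand for their list. Of the 12 blood and vessel genes 3 rose and 2 fell between litters, beside 16.9% and 17.8% of all genes, with a median of -0.06. The genes named here were picked after their values were seen. All values are from edgeR's fit with genotype in the model, and the cause was not tested.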
